A study of Homo sapiens with 6 samples.

Results

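Secreted proteins that cells release under stress were followed here through 9 genes, all of which had a row among the 32692 genes of the deposited table. They were chosen by name, as factors known to rise in endoplasmic reticulum stress, amino acid shortage or low oxygen. The rule itself uses no measured value, but the choice was made with earlier results of these data known. The genes are GDF15, INHBE, FGF21, VEGFA, ANGPTL4, ADM, ADM2, STC1 and STC2. RNA came from DU145, an established human prostate carcinoma line, cultured for 24 h with 5 µM OTI-611, a compound given by code name alone, or with DMSO as vehicle. Each treatment had 3 libraries, OTI-611 1 to 3 and DMSO 1 to 3. No engineered allele is named for either group, and one cell line was used throughout. Whether replicate libraries stem from separate cultures is not stated, and p-values here therefore capture spread among libraries that could be technical. The study's title sets the comparison in the context of the chromatin remodeller CHD1L as a target in prostate cancer.

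The cell responses behind this group of genes share a logic. Sensors of misfolded protein or of uncharged tRNA slow translation and favour the transcription factor ATF4 and its partner CHOP, while oxygen shortage stabilises the HIF factors, and each raises a set of secreted proteins as well as intracellular genes. The secreted products carry the signal to other tissues. GDF15 acts on the brainstem, FGF21 on metabolism, VEGFA and the adrenomedullins on vessels, ANGPTL4 on fat uptake, and the stanniocalcins on growth factor release.

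Values are in RPKM, a read number per length and depth, so levels of different genes can be set side by side, within the accuracy of gene lengths that the authors do not state. The column of DMSO 1 holds whole numbers only. It differed from the other DMSO libraries by -0.514 RPKM on average for 4574 genes of 1 to 5 RPKM, and by -0.526 RPKM for 6720 genes of 5 to 50 RPKM. It is therefore read as the same quantity with decimals dropped. For 1042 genes of 50 to 200 RPKM the difference was -0.918 RPKM, larger than dropped decimals alone would give, and the cause was not tested. For the 9 genes, fold changes are given with DMSO 1 and without it. Group means with DMSO include it unless stated, and below 1 RPKM its listed 0 lowers them. Steps between low values gave an estimated 37.2 to 37.7 M reads per OTI-611 library and 30.6 to 32.3 M for DMSO 2 and DMSO 3, with no estimate for DMSO 1. The epithelial genes KRT8, KRT18 and EPCAM averaged 105.0, 99.1 and 13.8 RPKM with OTI-611 and 148.6, 99.3 and 13.9 RPKM with DMSO, whereas the prostate secretory gene KLK3 lay under 0.1 RPKM in both. Of 10 markers of leukocytes, endothelium and fibroblasts, 7 had a row, and the highest of them, COL1A1, averaged 0.174 RPKM with OTI-611 and 0.465 RPKM with DMSO, or 0.698 RPKM without DMSO 1. A low listed value need not mean little RNA. LDHA, a glycolytic enzyme gene that cultured cells generally use, was listed at only 0.299, 0.370 and 0.213 RPKM with OTI-611 and at 0, 0.494 and 1.05 RPKM with DMSO. What this means for the low values below was not tested.

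The secreted factor genes were mostly higher after OTI-611, with ANGPTL4 as the exception. Fitted with no filter on low values, 7 of the 9 were higher, ANGPTL4 was lower and FGF21 did not pass (limma, adjusted p under 0.05). In that fit 22.1% of 31788 genes passed, 9.79% higher and 12.3% lower. Values with OTI-611 were separate from and above those with DMSO in 7 of the 9 genes, as in 15.7% of those genes, and below in ANGPTL4, with 32.2% separate in either direction. The median log2 fold change of the 9 genes on the log2(RPKM + 1) scale was 0.57, against 0.00 over all genes fitted without the filter. Among genes averaging 1 RPKM or more, 65.2% passed, 27.8% higher and 37.3% lower, and in 70.2% the groups were separate, 30.5% with OTI-611 above and 39.7% with OTI-611 below. Without DMSO 1, 68.2% of 12119 genes passed, 26.3% higher and 41.9% lower, so a call is common in these data and the size of each change carries more information. Of the 9 genes, 7 reached that mean. GDF15 reached it only through its values with OTI-611, so no count over those 7 is used as support. Fold changes below come from the fit with that filter, with adjustment over 11978 genes, except for INHBE and FGF21, which come from the fit without it. In bulk RNA a change in the mix of cells and a change in RNA per cell cannot be told apart.

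**Figure D1:**
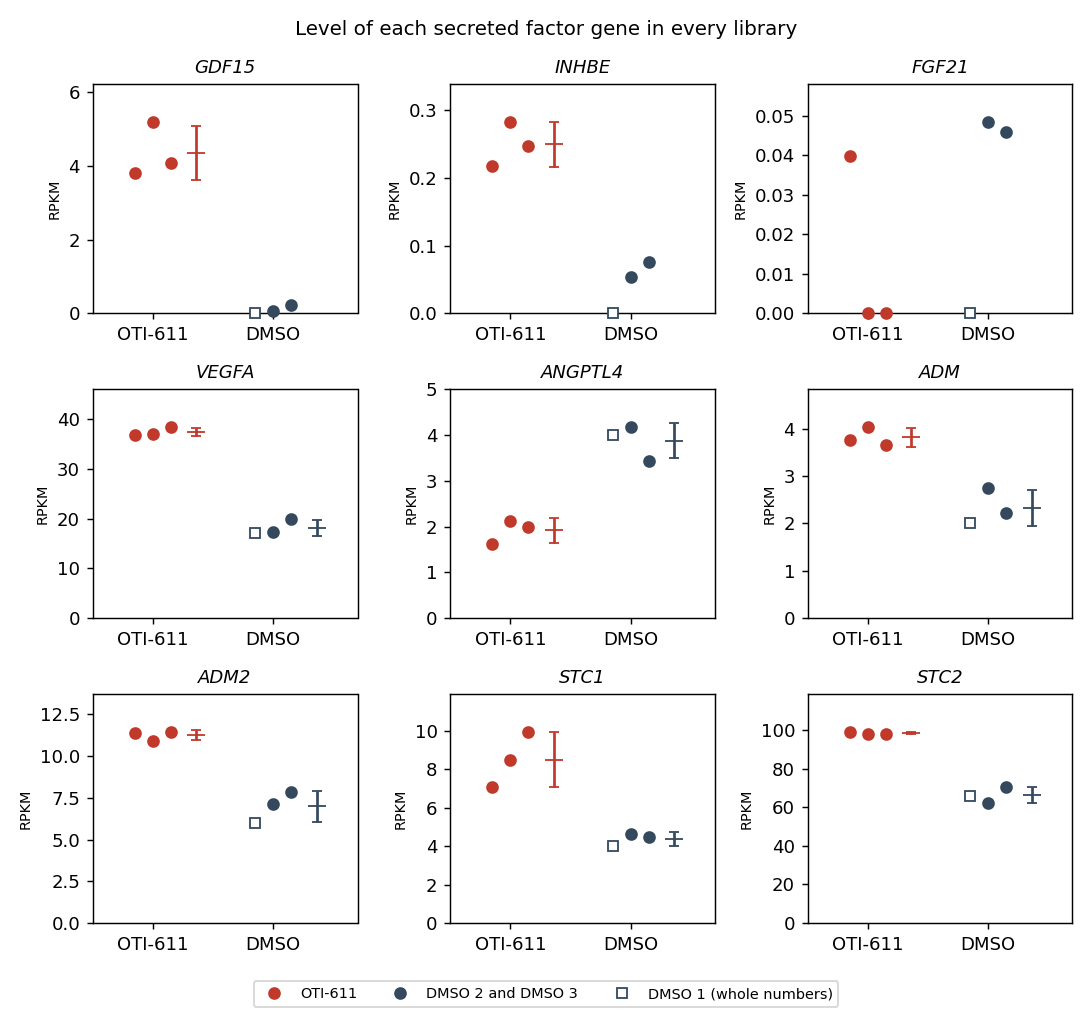
RPKM of each of the 9 genes (y axis, linear, from 0) in the 3 OTI-611 libraries (red) and the 3 DMSO libraries (dark; open squares mark DMSO 1), with the mean and SD of a group beside its points where none of its libraries is listed at 0. In 7 genes all OTI-611 points lie above all DMSO points, in ANGPTL4 they lie below, and in FGF21 the groups overlap.

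GDF15, a distant member of the TGF-beta family whose receptor sits in the brainstem and curbs appetite, had the largest change of the group. It stood at 3.81, 5.20 and 4.08 RPKM with OTI-611, against 0, 0.0661 and 0.209 RPKM with DMSO. Every OTI-611 library lay far above every DMSO library. The log2 fold change was 2.29 ± 0.14 (SE, n = 3 per group, limma adjusted p = 9.6e-07), and 2.23 without DMSO 1 (limma adjusted p = 1.19e-05). With no filter on low values, where passing does not depend on the OTI-611 level, the limma adjusted p was 1.21e-04. The pseudocount of 1 holds that value down, because the DMSO values are so small. The OTI-611 mean of 4.36 ± 0.73 RPKM (SD, n = 3) was 31.8 times the mean of DMSO 2 and DMSO 3. Those DMSO values stand for few reads, about 4 in DMSO 2 and 14 in DMSO 3, against about 296, 403 and 321 in the OTI-611 libraries. Before rounding, the DMSO 2 estimate was 4.21, so these read numbers are approximate. The ratio of read rates from them was 31.7, with an exact 95% interval of 20.0 to 53.8. Such intervals cover counting error only, and reads amplified without molecular identifiers are not independent molecules.

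INHBE encodes the beta E chain of activin E, a TGF-beta family factor made mainly by liver. Its listed levels were low in all libraries, at 0.218, 0.283 and 0.248 RPKM with OTI-611 and at 0, 0.053 and 0.0752 RPKM with DMSO. The groups did not overlap. The log2 fold change was 0.26 ± 0.053 (SE, n = 3 per group, limma adjusted p = 0.0122) and 0.23 without DMSO 1 (limma adjusted p = 0.013). The OTI-611 mean was 3.89 times that of DMSO 2 and DMSO 3, and about 84 reads over 3 OTI-611 libraries stood against about 12 over those 2, a ratio of read rates of 3.92 (exact 95% interval 2.13 to 7.89). Before rounding, the estimates for INHBE were 24.49, 31.72 and 28.13 reads with OTI-611 and 4.88 and 7.32 reads in DMSO 2 and DMSO 3. None lay within 0.05 of a whole number, so these read numbers and the interval built on them are rough. With a pseudocount of 0.1 the call was lost (limma adjusted p = 0.155), and the whole-number value of DMSO 1 cannot resolve levels of this size.

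FGF21, an endocrine fibroblast growth factor released mainly by liver in fasting and amino acid shortage, was close to the limit of detection in both groups. It was listed at 0.0398, 0 and 0 RPKM with OTI-611 and at 0, 0.0484 and 0.0458 RPKM with DMSO, each value above 0 standing for about 2 reads. The groups overlapped, and no difference was detectable at this depth (log2 fold change -0.03 ± 0.029, SE, n = 3 per group, limma adjusted p = 0.647). Without DMSO 1 the log2 fold change was -0.05 (limma adjusted p = 0.252).

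The promoters of GDF15 and FGF21 are shown because both genes are known targets of ATF4 and GDF15 rose whereas FGF21 gave no detectable difference. Each run is the 250 bases before the RefSeq start on GRCh38.p14, plus strand, at chr19:18385908-18386157 and chr19:48755274-48755523. Capitals mark matches to TGATGNAA, the core of the composite element bound by ATF4 with a C/EBP partner, to ACGTG and GCGTG, the cores of HIF sites, and to CCAAT. All were searched on both strands, and no 2 matches printed here overlap except in the promoter of STC2.
GDF15: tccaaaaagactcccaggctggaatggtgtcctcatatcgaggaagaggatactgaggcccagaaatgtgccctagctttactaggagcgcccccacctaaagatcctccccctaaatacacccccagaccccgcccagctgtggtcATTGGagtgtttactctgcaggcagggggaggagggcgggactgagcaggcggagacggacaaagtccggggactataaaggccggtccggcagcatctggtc
FGF21: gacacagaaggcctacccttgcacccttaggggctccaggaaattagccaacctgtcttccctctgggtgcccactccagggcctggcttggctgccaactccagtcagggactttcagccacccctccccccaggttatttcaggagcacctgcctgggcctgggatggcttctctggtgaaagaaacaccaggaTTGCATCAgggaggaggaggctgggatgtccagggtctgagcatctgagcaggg

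FGF21 carried TGATGNAA, read on the minus strand as TTGCATCA, at positions -54 to -47 relative to the start. Over 35116 RefSeq promoters of the same length, 3.14% held that motif. GDF15 had only CCAAT, on the minus strand at -103 to -99, a motif in 32.0% of promoters. The absence of other matches says only that these letters are not in this window. The GENCODE v29 gene model of GDF15 starts well upstream of the RefSeq start, at base 18374731 of chromosome 19, so other starts are not covered.

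VEGFA, the main growth factor of vessel endothelium, rose. It had 36.9, 36.9 and 38.4 RPKM with OTI-611, against 17, 17.4 and 19.9 RPKM with DMSO. The highest DMSO library, DMSO 3, still lay well under the lowest OTI-611 library. Means were 37.4 ± 0.88 RPKM with OTI-611 and 18.1 ± 1.6 RPKM with DMSO (SD, n = 3 each), a log2 fold change of 1.01 ± 0.055 (SE, limma adjusted p = 4.94e-07) and of 0.97 without DMSO 1 (limma adjusted p = 1.41e-05). Against DMSO 2 and DMSO 3 the ratio was 2.00, and 3.89% of genes fitted had a larger absolute log2 change. The table gives 1 value per gene, so splice forms of VEGFA, which differ in how tightly they bind matrix, were not resolved. In GENCODE v29 the exons of VEGFA merge into 4 blocks with 14431 bases, many of them from transcripts that keep introns, which lowers its RPKM relative to other genes if the authors used such a length.

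ANGPTL4, a secreted inhibitor of lipoprotein lipase that HIF and the PPAR receptors are known to induce, fell. It stood at 1.62, 2.13 and 1.99 RPKM with OTI-611, against 4, 4.18 and 3.44 RPKM with DMSO. All OTI-611 libraries lay below all DMSO libraries. Means were 1.91 ± 0.27 RPKM with OTI-611 and 3.87 ± 0.38 RPKM with DMSO (SD, n = 3 each), a log2 fold change of -0.74 ± 0.10 (SE, limma adjusted p = 1.61e-04). Without DMSO 1 it was -0.72 (limma adjusted p = 7.64e-04). The OTI-611 mean was 0.502 times that of DMSO 2 and DMSO 3. VEGFA and ANGPTL4, both known HIF targets, thus moved apart: the ratio of VEGFA to ANGPTL4 within a library was 22.8, 17.3 and 19.3 with OTI-611 and 4.25, 4.16 and 5.80 with DMSO. This pair was chosen after its values were seen.

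ADM encodes adrenomedullin, a peptide that widens vessels, and ADM2 its relative intermedin, which acts through the same receptors. ADM had 3.76, 4.04 and 3.66 RPKM with OTI-611, against 2, 2.74 and 2.22 RPKM with DMSO. Its log2 fold change was 0.54 ± 0.098 (SE, n = 3 per group, limma adjusted p = 9.35e-04) and 0.47 without DMSO 1 (limma adjusted p = 0.0019). ADM2 had the higher level, 11.4, 10.9 and 11.4 RPKM with OTI-611 and 6, 7.15 and 7.81 RPKM with DMSO. The groups were separate for both genes. ADM2 gave a log2 fold change of 0.62 ± 0.078 (SE, n = 3 per group, limma adjusted p = 9.34e-05) and of 0.53 without DMSO 1 (limma adjusted p = 1.07e-04). Against DMSO 2 and DMSO 3 the OTI-611 means were 1.54 times as high for ADM and 1.50 times for ADM2. The ratio of ADM2 to ADM within a library overlapped between groups, at 2.70 to 3.13 with OTI-611 and 2.61 to 3.52 with DMSO.

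STC1 and STC2, the stanniocalcins, are secreted glycoproteins that inhibit the protease PAPP-A and so limit the release of insulin-like growth factors. STC2 had the highest RPKM of the group, at 99.1, 98.2 and 98.0 RPKM with OTI-611 and 66, 62.2 and 70.6 RPKM with DMSO. It averaged 98.4 ± 0.59 RPKM with OTI-611 and 66.2 ± 4.2 RPKM with DMSO (SD, n = 3 each), with no overlap, and its log2 fold change was 0.57 ± 0.041 (SE, limma adjusted p = 2.75e-06). Leaving out DMSO 1 gave 0.56 (limma adjusted p = 7.75e-05). STC1 had 7.06, 8.49 and 9.95 RPKM with OTI-611, against 4, 4.66 and 4.47 RPKM with DMSO. Its OTI-611 libraries were more spread than its DMSO libraries, yet each lay above all of them. The log2 fold change of STC1 was 0.81 ± 0.10 (SE, n = 3 per group, limma adjusted p = 1.07e-04) and 0.76 without DMSO 1 (limma adjusted p = 9.85e-04). The OTI-611 means were 1.86 times those of DMSO 2 and DMSO 3 for STC1 and 1.48 times for STC2. The ratio of STC2 to STC1 overlapped, at 9.85 to 14.0 with OTI-611 and 13.4 to 16.5 with DMSO.

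Promoters are shown for STC2 and ADM, which rose and are known to respond to low oxygen, and for ANGPTL4, which fell. They come from the same RefSeq table and build, at chr5:173328415-173328664 (minus strand), chr11:10304823-10305072 (plus strand) and chr19:8363905-8364154 (plus strand), with the same motifs in capitals.
STC2: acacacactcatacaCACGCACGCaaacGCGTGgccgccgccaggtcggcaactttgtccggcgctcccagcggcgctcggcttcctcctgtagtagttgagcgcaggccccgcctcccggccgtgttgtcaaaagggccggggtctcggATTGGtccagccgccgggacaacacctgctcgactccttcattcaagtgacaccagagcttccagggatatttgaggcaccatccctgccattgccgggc
ADM: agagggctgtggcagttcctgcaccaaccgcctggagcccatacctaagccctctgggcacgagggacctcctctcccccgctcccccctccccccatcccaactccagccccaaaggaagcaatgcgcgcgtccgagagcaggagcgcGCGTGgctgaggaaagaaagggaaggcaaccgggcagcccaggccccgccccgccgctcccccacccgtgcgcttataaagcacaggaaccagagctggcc
ANGPTL4: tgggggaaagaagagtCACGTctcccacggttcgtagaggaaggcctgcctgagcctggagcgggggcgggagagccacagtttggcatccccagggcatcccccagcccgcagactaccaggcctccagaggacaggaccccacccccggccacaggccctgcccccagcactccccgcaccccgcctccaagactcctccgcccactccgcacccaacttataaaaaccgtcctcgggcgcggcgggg

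STC2 held GCGTG 3 times between positions -235 and -218, with 2 of the matches sharing a base, and CCAAT at -100 to -96. ADM held GCGTG at -101 to -97, and ADM2, not printed, held it at -225 to -221. ANGPTL4 held ACGTG, on the minus strand, at -234 to -230. Over all promoters of this length 32.2% held GCGTG and 18.5% held ACGTG, so such matches are common. None of the 6 promoters held the endoplasmic reticulum stress element, which 0.074% of promoters held. Sequence was at hand for 6 of the 9 genes. As for GDF15, the GENCODE v29 gene models of STC2, ADM and ANGPTL4 begin upstream of the windows printed here. They begin at bases 173329503 (minus strand), 10304680 and 8363289 of their chromosomes, so other starts are not covered.

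**Figure D2:**
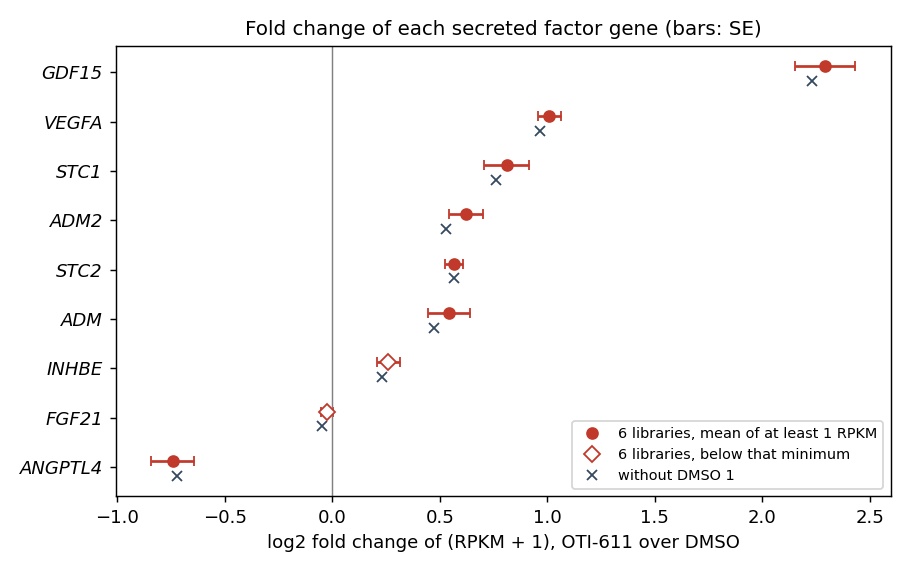
log2 fold change of RPKM + 1, OTI-611 over DMSO, for each gene (red; filled circles for genes averaging 1 RPKM or more, open diamonds for those below; bars are SE) and the same without DMSO 1 (crosses). GDF15 stands at 2.29 and VEGFA at 1.01, 4 genes lie between 0.54 and 0.81, ANGPTL4 stands at -0.74, and each cross lies on the same side of 0 as its circle or diamond.

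The order of levels, from the most to the least abundant, was STC2, VEGFA, ADM2, STC1, GDF15, ADM, ANGPTL4, INHBE and FGF21 with OTI-611. With DMSO it was STC2, VEGFA, ADM2, STC1, ANGPTL4, ADM, GDF15, INHBE and FGF21. GDF15 thus moved up to the fifth place and ANGPTL4 down to the seventh. Neighbours whose libraries overlapped were GDF15 and ADM with OTI-611, and STC1 and ANGPTL4, GDF15 and INHBE, and INHBE and FGF21 with DMSO. All other neighbours were separate in every library of the group. The order of STC2 and VEGFA depends on the gene lengths used. Estimated reads over the 3 OTI-611 libraries were 67668 for STC2 and 60552 for VEGFA. These estimates assume that the authors used GENCODE v29 exon lengths. If so, a shorter length for VEGFA could turn the order. If not, the read numbers do not hold, and the listed order already rests on other lengths.

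Summed over the 9 genes, the level was 165.9 ± 2.0 RPKM with OTI-611 and 102.1 ± 5.8 RPKM with DMSO (SD, n = 3 each), 1.62 times as high, or 1.60 times against DMSO 2 and DMSO 3. STC2 made up 59.3 ± 1.1% of the sum with OTI-611 and 64.9 ± 1.8% with DMSO (SD, n = 3 each). VEGFA made up 22.5 ± 0.34% with OTI-611 and 17.7 ± 0.58% with DMSO (SD, n = 3 each). These shares carry the same dependence on gene length. GDF15, the gene with the largest fold, added 4.23 RPKM over DMSO 2 and DMSO 3, or 6.78% of the summed difference, whereas STC2, with one of the smaller folds, added 32.1 RPKM, or 51.5%.

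**Figure D3:**
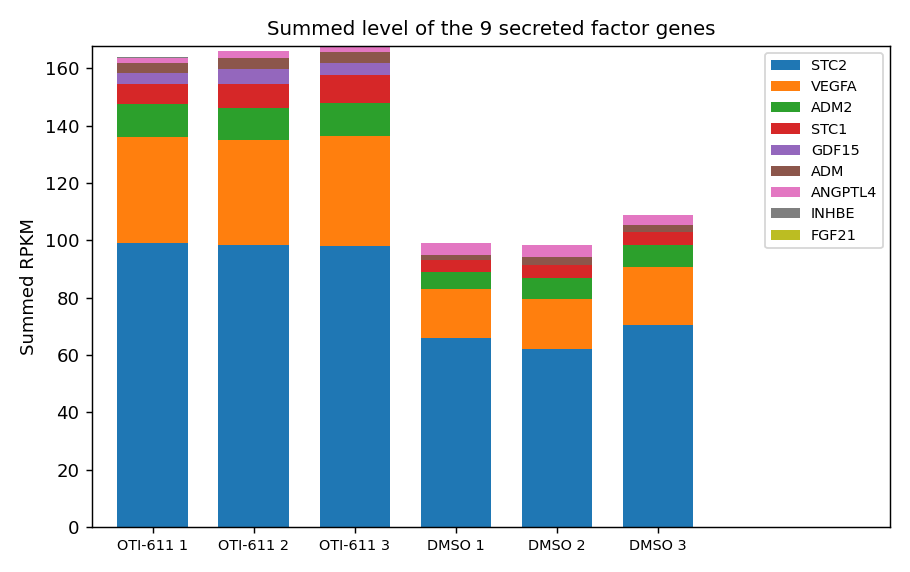
Stacked RPKM of the 9 genes in each library (y axis from 0), with OTI-611 libraries left and DMSO libraries right. STC2 and VEGFA fill most of each bar, and the OTI-611 bars sum to 165.9 ± 2.0 RPKM against 102.1 ± 5.8 RPKM for DMSO (SD, n = 3 each).

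The genes whose profile over the 6 libraries was closest to that of GDF15, by root mean squared distance between centred log2(RPKM + 1) values, were UPP1 (distance 0.127), PPP1R15A (0.129), CTH (0.131), TMEM158 (0.158) and TRIB3 (0.165). On this scale the pseudocount of 1 holds the change of GDF15 down. Its mean rose 31.8 times over DMSO 2 and DMSO 3, so likeness here does not mean a like ratio of RPKM. All were more abundant than GDF15. UPP1, which breaks down uridine, averaged 404.1 RPKM with OTI-611 and 74.1 RPKM with DMSO, and CTH, an enzyme of cysteine synthesis, 31.2 RPKM with OTI-611 and 6.10 RPKM with DMSO. Over 6 libraries in 2 groups this likeness is a description.

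Many receptors of these factors were listed at low values, which, as for LDHA, need not mean little RNA. Of 19 receptor and co-receptor genes, 16 had a row and 7 reached a mean of 1 RPKM. Of these, 2 were higher, 3 were lower and 2 did not pass (limma), with a median log2 fold change of 0.05 against -0.05 over all genes tested. The VEGFA receptor KDR averaged 0.0061 RPKM with OTI-611 and 0.00703 RPKM with DMSO, and FLT1 was listed at 0 in all OTI-611 libraries and in DMSO 1 and DMSO 2, and at 0.0087 RPKM in DMSO 3. The co-receptor NRP1 had 29.3 ± 0.65 RPKM with OTI-611 and 26.9 ± 0.83 RPKM with DMSO (SD, n = 3 each; log2 fold change 0.12, limma adjusted p = 0.0106). NRP2, which reached the minimum mean only through its DMSO values, was lower (0.715 RPKM with OTI-611, 1.30 RPKM with DMSO; log2 fold change -0.42, limma adjusted p = 0.029), a call lost with no filter (limma adjusted p = 0.192). It was lost too without any 1 of the OTI-611 libraries (limma adjusted p of 0.0518, 0.0943 and 0.0836), and the mean fell under the minimum without DMSO 2 or DMSO 3.

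The adrenomedullin receptor CALCRL averaged 0.0319 RPKM with OTI-611 and 0.0827 RPKM in DMSO 2 and DMSO 3. Of its RAMP partners, RAMP2 averaged 0.0206 RPKM with OTI-611 and 0.0359 RPKM in DMSO 2 and DMSO 3. RAMP1 averaged 2.33 RPKM with OTI-611 and 1.84 RPKM with DMSO, which did not pass (limma adjusted p = 0.166). RAMP3 was not analysed here. For FGF21, the co-receptor KLB averaged 0.0356 RPKM with OTI-611 and 0.0927 RPKM in DMSO 2 and DMSO 3. FGFR4 was lower, at 6.99 ± 0.11 RPKM with OTI-611 and 8.89 ± 0.81 RPKM with DMSO (SD, n = 3 each; log2 fold change -0.30, limma adjusted p = 0.00225). FGFR1 had a log2 fold change of -0.15 (limma adjusted p = 0.0453) with overlapping groups. Its call was lost with no filter, quantile normalization, rescaling, whole numbers in all libraries or no mean-variance trend (limma adjusted p of 0.153, 0.0818, 0.148, 0.087 and 0.0876), and without OTI-611 1, OTI-611 2, DMSO 2 or DMSO 3 (limma adjusted p of 0.147, 0.0558, 0.145 and 0.115). The activin receptor gene ACVR1B was higher, at 11.7 ± 0.37 RPKM with OTI-611 and 9.31 ± 0.37 RPKM with DMSO (SD, n = 3 each; log2 fold change 0.30, limma adjusted p = 3.59e-04), while ACVR2A stood at 0.05 (limma adjusted p = 0.688). GFRAL and RET, the receptor pair of GDF15, were not analysed here.

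Of 11 genes for processing enzymes, targets and inhibitors, 5 reached the mean of 1 RPKM, of which 1 was higher, 2 were lower and 2 did not pass (limma; median log2 fold change -0.34). IGFBP4, the binding protein that PAPP-A cleaves and stanniocalcins thereby protect, was higher, at 83.9 ± 4.2 RPKM with OTI-611 and 55.6 ± 0.53 RPKM with DMSO (SD, n = 3 each; log2 fold change 0.58, limma adjusted p = 9.9e-07). PAPPA itself averaged 0.0802 RPKM with OTI-611 and 0.152 RPKM in DMSO 2 and DMSO 3. PAM, which amidates peptides such as adrenomedullin, was lower, at 63.5 ± 0.69 RPKM with OTI-611 and 80.8 ± 2.6 RPKM with DMSO (SD, n = 3 each; log2 fold change -0.34, limma adjusted p = 7.94e-06). FSTL3, a secreted inhibitor of activins, was lower, at 10.8 ± 0.96 RPKM with OTI-611 and 20.0 ± 1.3 RPKM with DMSO (SD, n = 3 each; log2 fold change -0.83, limma adjusted p = 4.51e-06). LMF1, which matures lipoprotein lipase, stood at -0.36 (limma adjusted p = 0.11) and passed only without DMSO 1 or after quantile normalization, at -0.57 and -0.28 (limma adjusted p of 5.3e-04 and 0.0492). FURIN, a protease that cleaves many secreted precursors, had 15.1 RPKM with OTI-611 and 14.8 RPKM with DMSO.

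Among family relatives, 5 of 23 listed genes reached the mean of 1 RPKM, 2 of them higher and 3 lower (limma; median log2 fold change -0.48). VEGFC, a growth factor of lymph vessels, and VEGFB were higher, by 0.62 ± 0.096 and 0.35 ± 0.052 on the log2 scale (SE, n = 3 per group, limma adjusted p = 3.43e-04 and 3.12e-04). TGFB1 and TGFB2, growth factors that restrain many epithelia, were lower, with log2 fold changes of -0.48 ± 0.047 and -0.57 ± 0.085 (SE, n = 3 per group, limma adjusted p = 1.97e-05 and 2.74e-04), and GDF11 was at -0.55 (limma adjusted p = 9.55e-04). Of 24 other growth factor genes, not chosen for a tie to stress, 15 were tested, 7 higher and 5 lower, with a median of 0.02. Among these, AREG had 120.9 RPKM with OTI-611 and 80.3 RPKM with DMSO and FGF2 26.4 RPKM with OTI-611 and 17.3 RPKM with DMSO, while CSF1 had 16.1 RPKM with OTI-611 and 37.9 RPKM with DMSO and BMP4 1.02 RPKM with OTI-611 and 3.19 RPKM with DMSO, each past the threshold in limma. VGF, counted as higher, reached the minimum mean only through its OTI-611 values and did not pass with no filter (limma adjusted p = 0.183). PDGFC, counted as higher, and PDGFB, counted as lower, did not pass with no filter either (limma adjusted p of 0.175 and 0.0606).

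Of 28 tested genes for stress and oxygen regulators, 14 were higher and 7 were lower, with a median log2 fold change of 0.26 (limma). The transcripts that encode ATF4 and HIF1A went different ways, with ATF4 at 250.6 ± 3.7 RPKM with OTI-611 and 282.6 ± 8.4 RPKM with DMSO, and HIF1A at 167.6 ± 9.7 RPKM with OTI-611 and 113.2 ± 2.9 RPKM with DMSO (SD, n = 3 each; limma adjusted p = 4.23e-04 and 2.87e-06). Both proteins are known to be set largely after transcription, which was not measured here. DDIT3, which encodes CHOP, had 169.0 ± 5.9 RPKM with OTI-611 and 17.1 ± 2.4 RPKM with DMSO (SD, n = 3 each; limma adjusted p = 9.77e-09). PPARG, of the PPAR family, was higher, at 11.6 ± 0.79 RPKM with OTI-611 and 5.48 ± 0.43 RPKM with DMSO (SD, n = 3 each; limma adjusted p = 2.12e-06). EGLN3, an oxygen-sensing hydroxylase that HIF induces, was lower, at 1.15 ± 0.27 RPKM with OTI-611 and 3.32 ± 0.40 RPKM with DMSO (SD, n = 3 each; limma adjusted p = 8.42e-05). ATF4, HIF1A, PPARG and EGLN3 were named after their values were seen.

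The intracellular genes of the same responses mostly rose (limma). Of 19 tested intracellular targets of ATF4 and CHOP, 18 were higher and 1 was lower, with a median log2 fold change of 1.00. PCK2, counted as higher, reached the minimum mean only through its OTI-611 values (2.06 RPKM with OTI-611, 0.609 RPKM with DMSO) and did not pass with no filter (limma adjusted p = 0.0678). TRIB3, a feedback inhibitor of the pathway, had 250.2 ± 13.3 RPKM with OTI-611 and 42.9 ± 3.7 RPKM with DMSO (SD, n = 3 each), and the lower gene was SLC7A11, the cystine transporter, at 40.6 RPKM with OTI-611 and 50.1 RPKM with DMSO. Of 15 chaperone and unfolded protein response genes of the endoplasmic reticulum, 13 were higher and 1 was lower, with a median of 0.77. HSPA5, the chaperone BiP, had 1385 ± 102 RPKM with OTI-611 and 220.9 ± 2.9 RPKM with DMSO (SD, n = 3 each), and the lower gene was SEC61B, a translocon subunit, at 81.1 RPKM with OTI-611 and 116.2 RPKM with DMSO. Of 15 tested intracellular HIF targets, 11 were higher and 3 were lower, with a median of 0.40. The smallest p-values belonged to HK2 (36.9 RPKM with OTI-611, 9.85 RPKM with DMSO), NDRG1 (23.1 RPKM with OTI-611, 10.9 RPKM with DMSO), P4HA1 (47.1 RPKM with OTI-611, 30.2 RPKM with DMSO) and PFKFB3, which was lower (21.5 RPKM with OTI-611, 31.9 RPKM with DMSO). The other lower HIF targets were PFKFB4 and INSIG2, with log2 fold changes of -0.71 and -0.14. Of the HIF targets counted as higher, PDK1 and P4HA2 did not pass with no filter (limma adjusted p of 0.164 and 0.098). P4HA2 did not pass without DMSO 1 either (limma adjusted p = 0.0748). SLC7A11, SEC61B, PFKFB4, INSIG2, GDF11, PCK2, VGF, PDK1, P4HA2, PDGFB and PDGFC were named after their values were seen, to complete or qualify counts. Over all genes averaging 1 RPKM or more, 27.8% were higher and 37.3% were lower. The counts of the lists stand as descriptions, without a test of one list against another.

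**Figure D4:**
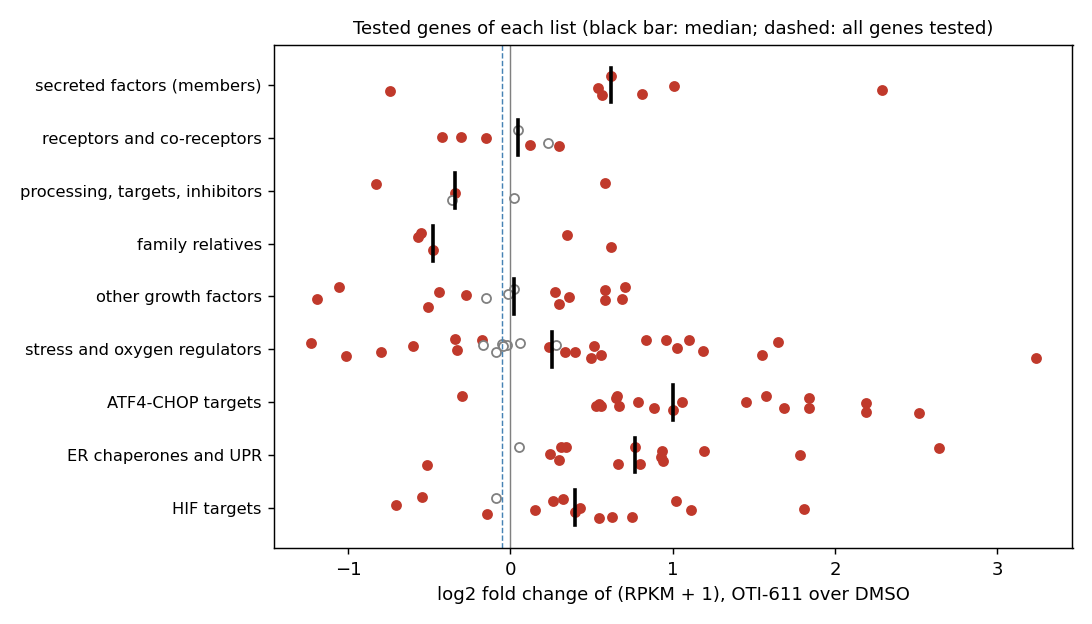
log2 fold change of RPKM + 1, OTI-611 over DMSO (x axis), for each gene averaging 1 RPKM or more in the 9 lists (rows; red, past the limma threshold; open, not past it). Black bars mark the list medians, which run from -0.48 for family relatives to 1.00 for ATF4 and CHOP targets, and the dashed line the median of all genes tested, -0.05.

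In GENCODE v29 on GRCh38 all 9 genes are protein-coding. GDF15 (ENSG00000130513), ANGPTL4 (ENSG00000167772) and FGF21 (ENSG00000105550) lie on chromosome 19, at 18374731 to 18389176, 8363289 to 8374373 and 48755559 to 48758333. VEGFA (ENSG00000112715) lies on chromosome 6 from 43770184 to 43786487, STC1 (ENSG00000159167) on chromosome 8 from 23841915 to 23854807 and STC2 (ENSG00000113739) on chromosome 5 from 173314713 to 173329503. ADM (ENSG00000148926) lies on chromosome 11 from 10304680 to 10307397, ADM2 (ENSG00000128165) on chromosome 22 from 50481556 to 50486440 and INHBE (ENSG00000139269) on chromosome 12 from 57452323 to 57459280. Bases shared with exons of another gene made up 1.3% of exon sequence in VEGFA, 0.04% in ANGPTL4 and 0% in the other 7. The treatment of reads on shared bases is not stated.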

How the data were processed

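RNA of 6 DU145 samples was amplified by the Geo-seq method and made into libraries with a TruePrep kit, per the labels' protocols. Tools in the submitters' processing notes are HTSeq, Cufflinks 2.1.1, TopHat2 2.0.9, FastQC and CASAVA 1.7, beside the mouse build mm10, without the role of each, while all 32692 gene IDs are human. The build and annotation behind the values are therefore not established. The authors deposited 5 columns read here as RPKM (FPKM would look alike) and 1 column, DMSO 1, of whole numbers. Its unit was recorded as a deposited score, since the values alone do not show it, and it was analysed as RPKM with decimals dropped. Between 69.5% and 70.8% of low values came out as whole reads (tolerance 0.05) with exon lengths from GENCODE v29, and estimated read numbers are approximate.

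Values were fitted as log2(value + 1) with limma 3.58.1 in R 4.3.3 over genes with a mean of at least 1, with the group as only term, a mean-variance trend and two-sided Benjamini-Hochberg adjustment over all genes fitted at 0.05. No count test was run because the deposited values are not counts. The fit was tested on simulated data in which few genes changed. In these data many genes pass, so that test does not bear on the share called here. The genes, lists, tests and alternatives were chosen with earlier results of these data known. Named genes are the 9 factors, up to 4 tested genes of each list with the smallest p, receptors, the 5 genes most like GDF15, and others where the text says so. Of 187 list entries, 170 matched a row. Marker lists served as a check only. The protein comparison first planned was not run.

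Alternatives were a pseudocount of 0.1, no filter, a minimum mean of 5, quantile normalization, rescaling to the median log ratio, whole numbers in all libraries, a replicate block, no trend, and leaving out each library.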

Additional observations from a re-analysis of the deposited data

How the results depend on the processing

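The fold changes of the 9 genes kept their direction and their side of the threshold in 116 comparisons with an alternative, with 1 exception. This was INHBE with a pseudocount of 0.1, at 1.33 (limma adjusted p = 0.155). The cause was not tested. Direction could not change with no filter, a minimum mean of 5, a replicate block or no trend. These leave the fold change of any gene as it is and can move only the call. The 11 alternatives of FGF21 count as kept because it passed in none. GDF15 ranged from 2.17 to 4.68, the upper end with the pseudocount of 0.1, and ANGPTL4 from -1.02 to -0.65. INHBE and FGF21 were taken from the fit without a filter, so the minimum mean of 5 and whole numbers in all libraries gave them no value. The number of receptor genes called lower, 3, was 1 with no filter on low values and 1 with whole numbers in all libraries, and ranged from 1 to 3 when 1 library was left out. With no filter the processing and inhibitor list had 2 higher in place of 1. With a minimum mean of 5 the family relatives had 1 lower in place of 3, and the other growth factors 4 higher and 3 lower in place of 7 and 5, as fewer genes were tested. ACVR2A turned to -0.20 with whole numbers in all libraries, where its 1.93 RPKM in OTI-611 3 became 1 and every other library stood at 2. Of the fold changes of other listed genes, 533 kept direction and call, 14 lost and 2 gained a call. The split over all genes moved from 3332 higher and 4473 lower to 3986 and 3978 after rescaling and 4085 and 4115 after quantile normalization.

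Libraries that share a number across groups did not deviate together (correlations of deviations of 0.019, 0.00 and -0.058 for the numbers 1, 2 and 3). With the replicate block 3327 genes were higher and 4429 lower, and INHBE still passed with a limma adjusted p of 0.0464; the block changed no call of the 9 genes, and of the other listed genes NRP2 lost its call (limma adjusted p = 0.0693). Values under about 0.1 RPKM rest on a few reads, which limits FGF21 and INHBE.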
